A study of Homo sapiens with 6 samples.

Results

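The kinesins and the centromere proteins were followed in RT4 cells depleted of *LEADR*. Members were taken by symbol: every protein-coding gene of the count table named KIF with a number, KIFC with a number, or CENP with a letter. The rule gave 61 of the 57905 genes in the table, of which 43 are kinesins, *CENPE* included, and 18 are the remaining CENP genes. RT4 is a long-established human line of papillary bladder cancer that grows as non-muscle-invasive disease, and all samples carry the genotype label WT. LEADR-KD cells received 100 pmol of an siRNA against *LEADR*, the spliced transcript of the miR-205 host gene *MIR205HG*, and Scramble cells the same amount of a universal negative control siRNA. Poly(A) RNA was taken after 48 h from 3 samples per siRNA, named here LEADR-KD 1, 2 and 3 and Scramble 1, 2 and 3. 1 siRNA and 1 cell line were used. The study's methods speak of biological replicates but, like the labels, do not say whether the samples of a group came from separate cultures or days, so p-values reflect only how far these samples spread, and part of that spread may be technical.

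Kinesins are motor proteins that walk along microtubules by hydrolysing ATP. Mitotic kinesins build the spindle, move chromosomes and act in cytokinesis, and their RNA is highest around mitosis in dividing cells. Transport kinesins carry vesicles, organelles and RNA in cells that divide and in cells that do not. The inner kinetochore is a set of CENP proteins that sits on centromeric chromatin marked by the histone variant CENP-A and holds the outer kinetochore, to which spindle microtubules attach. Members were put in 5 role groups: 15 mitotic kinesins, 15 transport kinesins, 13 other kinesins (ciliary, cortical or of another role), 14 inner kinetochore CENP genes and 4 other CENP genes.

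The siRNA is shown because short matches to its seed can lower transcripts other than the target. Capitals mark bases 2 to 8 of each strand, the seed.
siRNA listed strand: aACUGGGUgcuuuauauagga
siRNA complementary strand: uCCUAUAUaaagcacccaguu
On GRCh37, the build also called hg19, the first 20 bases of the listed strand lie on the plus strand at chr1:209602734-209602753, in an exon of *MIR205HG*, and the last base at position 209603770, in the exon that follows. *MIR205HG* also lies on the plus strand, so the listed strand has the letters of its transcript, and the complementary strand is the one that pairs with *LEADR*. The listed strand matches ACCCAGT in a target and its complement matches ATATAGG.

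The match ACCCAGT was present in the annotated 3′ UTR of 3 of 48 tested members with such a UTR (6.25%), against 11.8% of the 12001 protein-coding genes tested. These were *KIF1C*, *CENPA* and *KIF24*, and none of the 3 members that fell held it, while 24.1% of all protein-coding genes that fell did. The median 3′ UTR of these 3 members was 417 bases, against 1698 bases for all that fell, so the absence says little. Of 77 partner genes described below, 3 held ACCCAGT (3.9%): *DYNLL1*, which fell, *DYNLL2*, which rose, and *SKA3*, which did not pass. The match ATATAGG was present in 4 of 48 members (8.33%), *KIF5B*, *CENPL*, *KIF7* and *KIF27*, against 7.9% of all. Over all protein-coding genes tested, ATATAGG was in 8.88% of those that fell and 9.7% of those that rose. For ACCCAGT the share of those that rose was 8.82%. The sites of the 2 members that held a match and passed the test, both of which rose, are printed with the match in capitals and the bases beside it in lower case.
KIF1C, chr17:4928491-4928497 (GRCh37, plus strand): atgtttgcttACCCAGTgtctcagtctg
KIF5B, chr10:32299419-32299425 (GRCh37, minus strand): ttaaaaatatATATAGGtcaattttggt

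Promoters are printed because a pair of short elements is known from the promoters of genes expressed around mitosis: the CHR element, TTTGAA, bound by the MuvB complexes, and the CCAAT box, bound by NF-Y. Both were searched on both strands, so that TTCAAA counted as the CHR element and ATTGG as the CCAAT box, and neither motif contains the other. The search used RefSeq promoters of GRCh38.p14, from 250 bases before to 50 after each start, and 49 of the 61 members had at least 1. Genes were counted, so a gene with several promoters counted once and held a motif if any of them did. The CHR element was present in 10 of 15 mitotic kinesins (66.7%) and 1 of 11 transport kinesins (9.09%), against 18.2% of all 27305 genes with a promoter. Both elements were present in the same promoter in 9 of 15 mitotic kinesins (60.0%), 1 of 11 transport kinesins (9.09%) and 7.26% of all genes with a promoter. The CHR element was in 4 of 11 inner kinetochore genes (36.4%), 1 of 3 of the other CENP genes and 0 of 9 of the other kinesins. Of the 12 members called higher that had a promoter, 5 held it (41.7%), against 16 of all 49 members with a promoter (32.7%). Mitotic kinesins that did not pass held it too, *KIF14*, *KIF18B* and *KIF23* among them. A match is a description of the letters and not evidence of binding.

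The windows of 6 members that the results turn on follow, each from 100 bases before to 50 after the start on the gene's own strand in GRCh38.p14, with CHR elements and CCAAT boxes in capitals. The first 3 are the mitotic kinesins that rose, and the others are the inner kinetochore gene with the largest fold change and a transport kinesin that moved in each direction.
KIF11, chr10:92593030-92593179 (plus strand): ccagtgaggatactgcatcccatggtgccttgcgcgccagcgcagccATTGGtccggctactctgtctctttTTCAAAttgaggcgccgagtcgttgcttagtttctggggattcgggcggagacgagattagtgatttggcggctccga
KIF15, chr3:44761694-44761843 (plus strand): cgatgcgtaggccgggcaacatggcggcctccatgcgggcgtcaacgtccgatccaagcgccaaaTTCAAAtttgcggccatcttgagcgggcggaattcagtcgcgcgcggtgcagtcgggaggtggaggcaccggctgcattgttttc
KIF4A, chrX:70290004-70290153 (plus strand): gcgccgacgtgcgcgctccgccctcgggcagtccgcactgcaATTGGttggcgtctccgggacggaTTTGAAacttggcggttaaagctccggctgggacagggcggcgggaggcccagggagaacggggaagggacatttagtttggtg
CENPQ, chr6:49463270-49463419 (plus strand): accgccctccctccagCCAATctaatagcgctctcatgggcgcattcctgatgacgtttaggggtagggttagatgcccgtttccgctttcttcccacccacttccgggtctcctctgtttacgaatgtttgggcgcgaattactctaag
KIF5B, chr10:32056376-32056525 (minus strand): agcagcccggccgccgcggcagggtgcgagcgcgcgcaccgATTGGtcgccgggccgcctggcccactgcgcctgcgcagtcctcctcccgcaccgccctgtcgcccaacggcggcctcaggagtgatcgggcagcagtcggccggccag
KIF13A, chr6:17987586-17987735 (minus strand): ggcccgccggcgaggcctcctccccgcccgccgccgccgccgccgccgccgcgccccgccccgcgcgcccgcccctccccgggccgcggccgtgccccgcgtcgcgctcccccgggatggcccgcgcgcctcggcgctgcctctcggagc
The CHR element stood 28, 35 and 34 bases before the start in *KIF11*, *KIF15* and *KIF4A*. *CENPQ* held a CCAAT box alone, *KIF13A* held neither element, and the CHR element of *KIF5B* lay 140 bases before its start, outside the window.

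**Figure D1:**
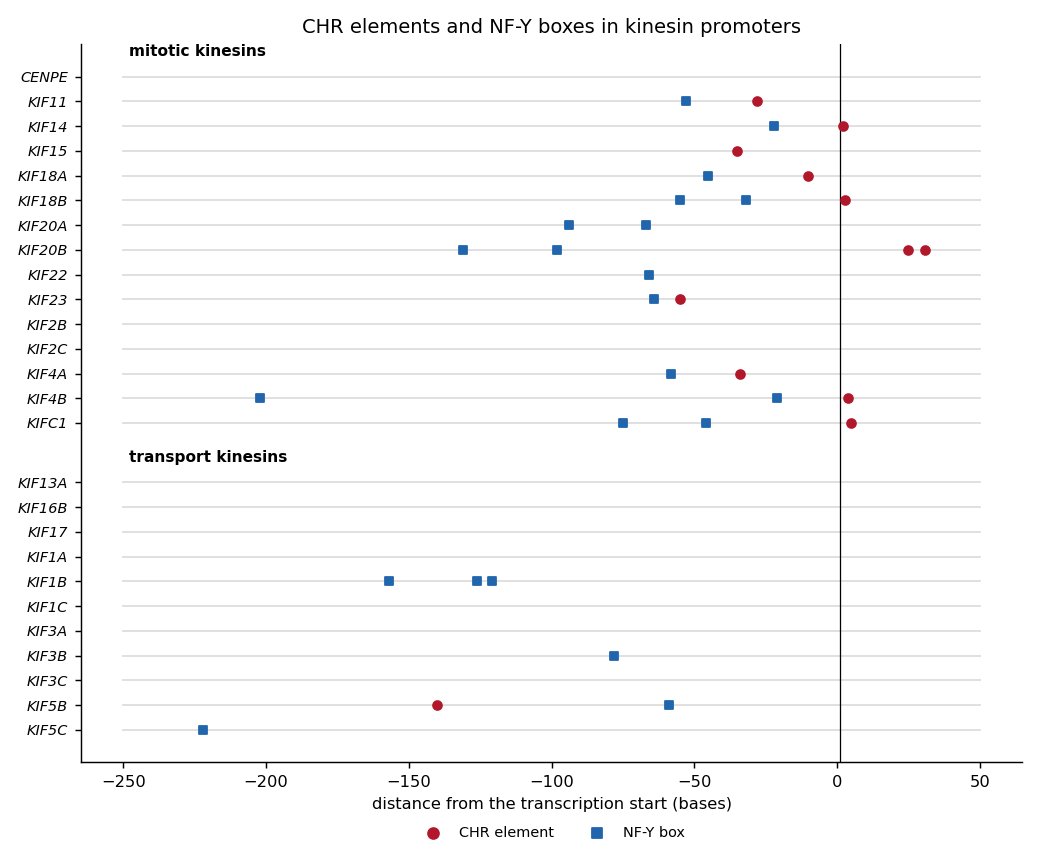
Position of each CHR element (red circles) and CCAAT box (the NF-Y box, blue squares) in the RefSeq promoters of mitotic and transport kinesins. Positions are distances from the transcription start in bases. Each grey line is 1 gene, from 250 bases before to 50 after the start, and pools all promoters of that gene. CHR elements are marked in 10 of 15 mitotic kinesin genes and in 1 of 11 transport kinesin genes, *KIF5B*.

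The deposited counts totalled 17369580 to 17841279 per LEADR-KD library and 15706033 to 18960822 per Scramble library, and 14178 genes had enough counts to be tested. *MIR205HG*, which checks the labels, had 113, 211 and 101 counts in LEADR-KD 1, 2 and 3, against 511, 337 and 346 in Scramble 1, 2 and 3 (log2 fold change -1.47, standard error 0.26, adjusted p = 0.0018). It just missed the threshold when unfiltered log2(FPKM + 1) values were tested by limma (adjusted p = 0.0507). Mitochondrial genes took 10.8% of the counts in LEADR-KD 1 and 11.9% in Scramble 1, and 3.06% to 5.73% in the other 4 libraries. Summed levels of 15 urothelial and epithelial markers were 8364 to 8995 CPM (counts relative to library size, which was scaled by TMM, the trimmed mean of M values) in LEADR-KD and 6925 to 7649 CPM in Scramble, with *CDH1*, *UPK1B* and *KRT18* higher by the test and *KRT5* and *KRT20* near 0 in both groups. Markers of fibroblasts summed to 18.4 to 25.7 CPM in LEADR-KD and 26.4 to 32.1 CPM in Scramble, and *COL1A2*, *DCN*, *PDGFRB* and *THY1* had no counts in any library. Markers of endothelium summed to 2.66 to 4.57 CPM in LEADR-KD and 7.34 to 10.3 CPM in Scramble, with *KDR*, *TEK* and *EMCN* at 0 counts, and *VWF* fell by 1.16 on the log2 scale (adjusted p = 0.00553). Markers of leukocytes summed to 4.89 to 8.21 CPM in LEADR-KD and 4.88 to 9.07 CPM in Scramble, with *CD3E*, *CD68* and *LYZ* among those at 0 counts. The part of these differences in the results was not tested.

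Of the 61 members, 49 were tested, of which 13 rose, 3 fell and 33 did not pass (edgeR's quasi-likelihood test, Benjamini-Hochberg adjusted p under 0.05 over all genes tested). Members that rose were 26.5% of those tested, against 12.2% of all genes, and members that fell were 6.12%, against 12.1% of all genes; in either direction the share was 32.7%, against 24.4%. The median log2 fold change was 0.15 over the members and -0.01 over all genes tested. Every LEADR-KD library was above every Scramble library in 22 of 49 members, and below in 3, where over all genes 19.9% were above and 19.9% below. In bulk RNA, a different number of cells that express a gene and a different amount of its RNA per cell cannot be told apart.

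Mitotic and transport kinesins, set side by side, both had more members that rose than fell. Members that rose were 23.1% of the mitotic and 41.7% of the transport kinesins tested, against 12.2% of all genes tested. Members that fell were 0% and 8.33%, against 12.1% of all genes tested. Of 13 mitotic kinesins tested, 3 rose, 0 fell and 10 did not pass, with a median log2 fold change of 0.12 and a range of -0.12 to 0.94. Of 12 transport kinesins tested, 5 rose, 1 fell and 6 did not pass, with a median of 0.21 and a range of -0.63 to 1.01. The difference between the groups was not tested.

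**Figure D2:**
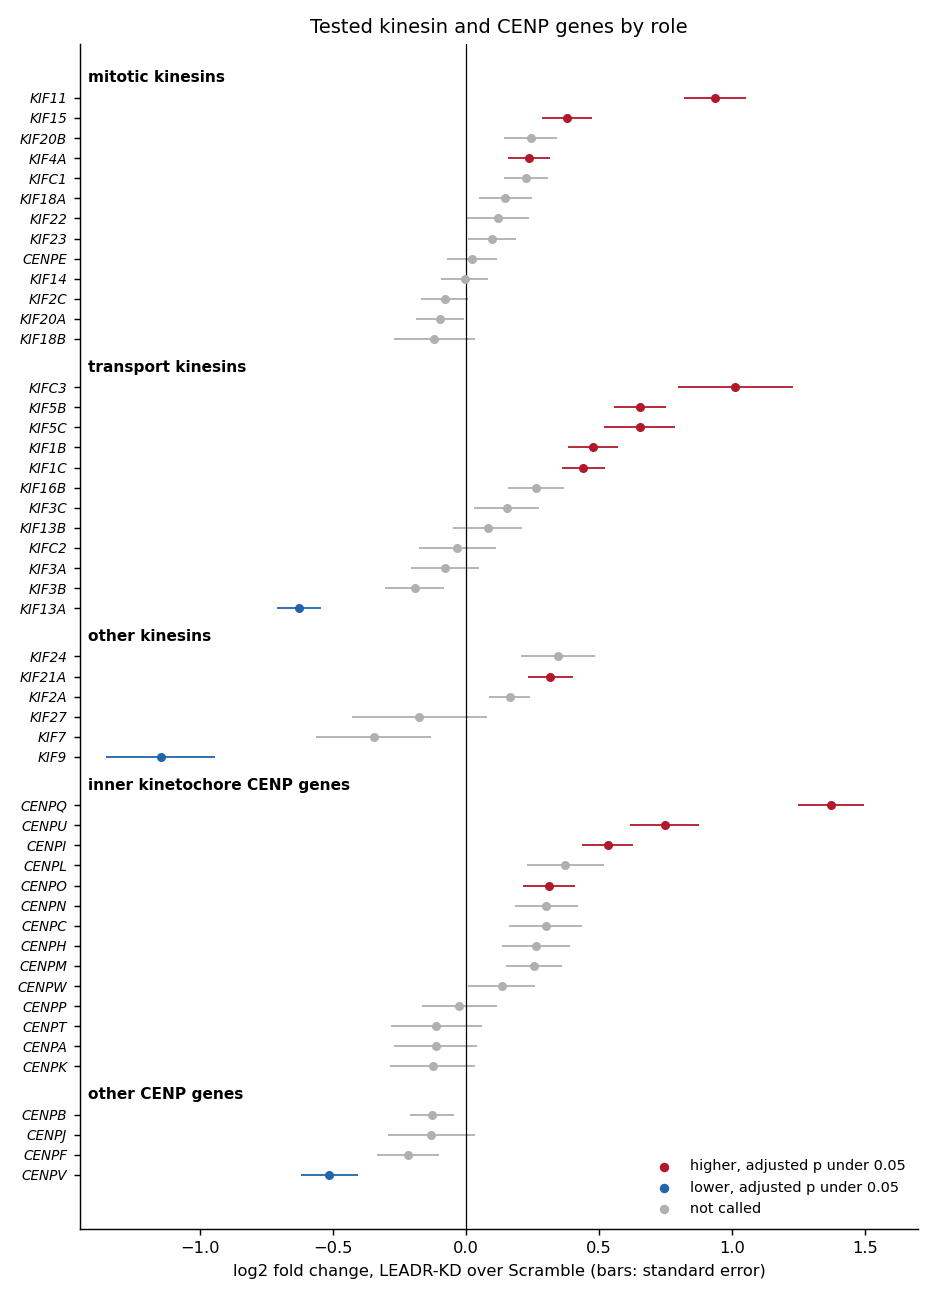
log2 fold change of LEADR-KD over Scramble with its standard error (horizontal bars) for the 49 tested members by role group; red marks members that rose, blue members that fell and grey those that did not pass. The 13 red points run from 0.24 in *KIF4A* to 1.37 in *CENPQ*, and the blue points are *KIF13A*, *KIF9* and *CENPV*.

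Among the mitotic kinesins, *KIF11* stood apart in size. *KIF11* (ENSG00000138160, chr10:94353043-94415150, plus strand, hg19) encodes the plus-end-directed tetrameric motor that slides spindle microtubules and pushes the poles apart. Its level was 171, 144 and 143 CPM in LEADR-KD 1, 2 and 3, against 85.0, 88.2 and 66.5 CPM in Scramble 1, 2 and 3. The groups did not overlap, and the gene rose 1.91-fold (log2 fold change 0.94, standard error 0.12, adjusted p = 0.000179). With each library left out in turn the log2 fold change stayed between 0.82 and 1.01.

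*KIF15*, which can take over from KIF11 in keeping the spindle bipolar, had 70.2, 68.0 and 72.9 CPM in LEADR-KD, against 53.8, 59.4 and 49.0 CPM in Scramble. It rose by 0.38 on the log2 scale (standard error 0.09, adjusted p = 0.0131), with no overlap, but leaving out Scramble 3 ended the call (adjusted p = 0.0549). *KIF4A*, a chromokinesin of chromosome arms and the spindle midzone, had 124, 122 and 129 CPM in LEADR-KD, against 109, 100.0 and 109 CPM in Scramble. All 3 LEADR-KD libraries were above all 3 Scramble libraries, and the gene rose by 0.24 on the log2 scale (standard error 0.08, adjusted p = 0.0449). The call of *KIF4A* was lost without any 1 of the 6 libraries (adjusted p = 0.065 to 0.163). *KIF4B*, a near-identical copy of *KIF4A* with 6 counts or fewer in each library, was not tested, and reads could be split between the copies.

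Of the mitotic kinesins that did not pass, *KIFC1*, the minus-end-directed motor that clusters spindle poles, had 129, 143 and 151 CPM in LEADR-KD, against 116, 123 and 124 CPM in Scramble (log2 fold change 0.23, unadjusted p = 0.0197 and adjusted p = 0.0711 from edgeR). Its groups did not overlap, and it passed without LEADR-KD 1 (log2 fold change 0.29, adjusted p = 0.0347). *KIF20B*, which acts in cytokinesis, had 76.0, 62.4 and 73.6 CPM in LEADR-KD, against 63.2, 56.1 and 59.8 CPM in Scramble, with LEADR-KD 2 below Scramble 1 (log2 fold change 0.24, unadjusted p = 0.0306 and adjusted p = 0.0978 from edgeR). The highest by mean CPM was *KIF23*, the motor of the centralspindlin complex, at 194, 210 and 242 CPM in LEADR-KD and 200, 198 and 205 CPM in Scramble, so that the groups overlapped (log2 fold change 0.10, adjusted p = 0.475).

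*KIF18A*, which dampens chromosome movements at the metaphase plate, had the lowest mean CPM of the tested mitotic kinesins, with 42.6, 44.2 and 46.5 CPM in LEADR-KD and 41.2, 42.5 and 36.6 CPM in Scramble (log2 fold change 0.15, adjusted p = 0.311), so that the lowest LEADR-KD library and the highest Scramble library differed by little. The chromokinesin gene *KIF22* was at 0.12, the kinetochore motor gene *CENPE* at 0.02, *KIF14*, of cytokinesis, at -0.004, the microtubule depolymerase gene *KIF2C* at -0.08, *KIF20A*, whose product brings the chromosomal passenger complex to the midzone, at -0.10 and *KIF18B*, which acts on astral microtubules, at -0.12. The groups overlapped in all 6. *KIF2B*, a further depolymerase, had no counts in any library.

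The mitotic median rested on 1 library more than on the others. Each gene's log2 level relative to its Scramble mean had a median over the mitotic kinesins of 0.09, 0.07 and 0.27 in LEADR-KD 1, 2 and 3, against -0.002, -0.02 and 0.009 in Scramble. Without LEADR-KD 3 the median log2 fold change of the mitotic kinesins was 0.02, against 0.12 with it, and *KIF11*, the only member of the group with a log2 change beyond 0.5, had its highest level in LEADR-KD 1. Over the transport kinesins the same medians were 0.30, 0.22 and 0.14 in LEADR-KD, against 0.05, 0.02 and -0.06 in Scramble. The transport median was thus above the mitotic one in LEADR-KD 1 and 2 and below it in LEADR-KD 3.

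**Figure D3:**
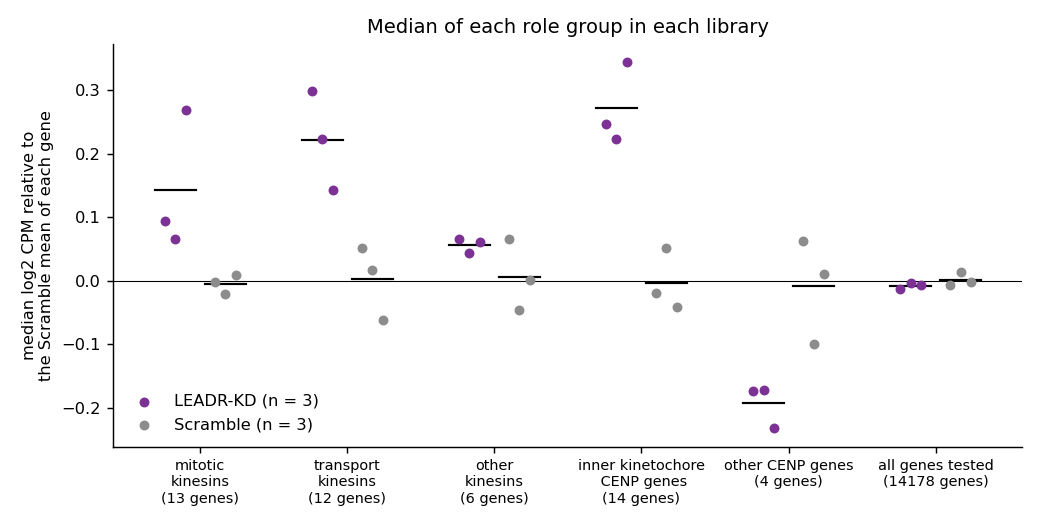
Median over each role group of the log2 CPM of its genes relative to their Scramble means, by library, with LEADR-KD in purple, Scramble in grey and black bars at the means (n = 3 each). Inner kinetochore CENP genes have medians of 0.22 to 0.34 in LEADR-KD and -0.04 to 0.05 in Scramble, and over all genes tested every library is within 0.02 of 0.

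Among the transport kinesins, both tested kinesin-1 heavy chains rose. *KIF5B* (ENSG00000170759, chr10:32297938-32345359, minus strand, hg19), the heavy chain found in most tissues, had 305, 253 and 253 CPM in LEADR-KD, against 184, 175 and 156 CPM in Scramble, a 1.57-fold rise (log2 fold change 0.65, standard error 0.10, adjusted p = 0.000675). *KIF5C*, best known from neurons, had 31.0, 33.0 and 25.7 CPM in LEADR-KD, against 21.1, 18.9 and 16.9 CPM in Scramble (log2 fold change 0.65, standard error 0.13, adjusted p = 0.00447). Neither gene's groups overlapped. *KIF5A*, the neuronal heavy chain, had no counts.

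The kinesin-3 motors moved in both directions. *KIF1C*, a motor of vesicles and RNA, had 321, 297 and 296 CPM in LEADR-KD, against 222, 238 and 213 CPM in Scramble, and rose by 0.44 on the log2 scale (standard error 0.08, adjusted p = 0.00228). *KIF1B*, known for carrying mitochondria and synaptic vesicle precursors, had 71.8, 68.7 and 62.9 CPM in LEADR-KD, against 52.4, 45.5 and 48.4 CPM in Scramble (log2 fold change 0.48, standard error 0.09, adjusted p = 0.00372). *KIF13A* (ENSG00000137177, chr6:17759414-17987854, minus strand, hg19), which carries recycling endosomes, fell to 165, 158 and 145 CPM in LEADR-KD, against 253, 238 and 233 CPM in Scramble. Its 1.54-fold fall (log2 fold change -0.63, standard error 0.08, adjusted p = 0.000259) was the only one among the tested transport kinesins, and the lowest Scramble library lay well above the highest LEADR-KD library.

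*KIF13B*, a kinesin-3 relative of *KIF13A*, did not pass (log2 fold change 0.08, adjusted p = 0.69). *KIF16B*, a motor of early endosomes, had 31.1, 28.5 and 29.6 CPM in LEADR-KD, against 24.9, 25.8 and 23.6 CPM in Scramble, without overlap (log2 fold change 0.26, unadjusted p = 0.0282 and adjusted p = 0.0924 from edgeR). *KIFC3*, a minus-end-directed motor linked to apical transport and cell junctions in epithelia, rose 2.02-fold and had the lowest mean CPM of the tested transport kinesins. It had 8.83, 15.1 and 12.8 CPM in LEADR-KD, against 5.24, 5.75 and 7.28 CPM in Scramble (log2 fold change 1.01, standard error 0.22, adjusted p = 0.00564), and LEADR-KD 1 was the closest to Scramble. On the log2(FPKM + 1) scale its change was 0.53.

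The kinesin-2 motor genes *KIF3A* and *KIF3B* did not pass. Their products form the heterotrimeric motor of intraflagellar transport with that of *KIFAP3*, a partner gene that rose and is described below. *KIF3B* had 146, 124 and 119 CPM in LEADR-KD and 171, 139 and 134 CPM in Scramble (log2 fold change -0.19, adjusted p = 0.24), with the highest mean CPM of the transport kinesins that did not pass. *KIF3A*, with the lowest, had 13.3, 13.5 and 15.1 CPM in LEADR-KD and 14.9, 15.1 and 14.1 CPM in Scramble (log2 fold change -0.08, adjusted p = 0.706). *KIF3C* was at 0.15 and *KIFC2* at -0.03, both with overlapping groups. *KIF1A*, with no counts, and *KIF17*, with 1 count in LEADR-KD 3, were not tested.

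Of the 6 other kinesins tested, 1 rose, 1 fell and 4 did not pass, with a median log2 fold change of -0.005. Each direction held 16.7% of them, where 12.2% of all genes tested rose and 12.1% fell. *KIF9* (ENSG00000088727, chr3:47269516-47324941, minus strand, hg19), a motor known from cilia and flagella, fell to 2.57, 3.41 and 3.40 CPM in LEADR-KD, against 7.24, 6.67 and 6.92 CPM in Scramble. The counts behind these levels were 41, 62 and 60 in LEADR-KD and 123, 130 and 116 in Scramble, and the 2.21-fold fall (log2 fold change -1.15, standard error 0.20, adjusted p = 0.00186) was the largest among the members. On the log2(FPKM + 1) scale, which understates changes of low genes, it was -0.51. *KIF9-AS1*, an antisense gene that overlaps it, had 41 counts over the LEADR-KD libraries and 29 over the Scramble libraries. *KIF21A*, which restrains microtubule growth at the cell cortex, had 95.0, 98.0 and 87.9 CPM in LEADR-KD, against 79.3, 73.1 and 73.2 CPM in Scramble (log2 fold change 0.32, standard error 0.08, adjusted p = 0.0177). Leaving out Scramble 2 (adjusted p = 0.0682), Scramble 3 (0.0607) or LEADR-KD 2 (0.0779) ended this call.

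*KIF24*, which restrains the growth of cilia, had 15.5, 16.3 and 15.5 CPM in LEADR-KD, against 12.1, 10.9 and 14.1 CPM in Scramble (log2 fold change 0.35, unadjusted p = 0.0284 and adjusted p = 0.0928 from edgeR). *KIF2A*, a depolymerase of spindle poles and of neurons, had 88.5, 85.8 and 83.1 CPM in LEADR-KD and 75.8, 76.9 and 76.9 CPM in Scramble, without overlap (log2 fold change 0.16, adjusted p = 0.154). Its locus overlaps *IPO11* on the same strand by 133278 bases, and *IPO11* rose by 0.40 (adjusted p = 0.00872). The part of shared reads in either gene was not tested. *KIF7*, a regulator of hedgehog signalling at the tip of cilia, was at -0.35 (adjusted p = 0.278). The *KIF7* locus overlaps *TICRR* on the opposite strand by 22268 bases, and *TICRR* rose by 0.28 (adjusted p = 0.0355). Whether the counting used strand is not stated. *KIF27*, a relative of *KIF7*, had the lowest mean CPM of the tested members, with 3.13, 2.42 and 3.34 CPM in LEADR-KD and 3.83, 2.87 and 3.34 CPM in Scramble (log2 fold change -0.17, adjusted p = 0.666). *KIF6*, *KIF12*, *KIF19*, *KIF21B*, *KIF25*, *KIF26A* and *KIF26B* had 12 counts or fewer in each library and were not tested.

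**Figure D4:**
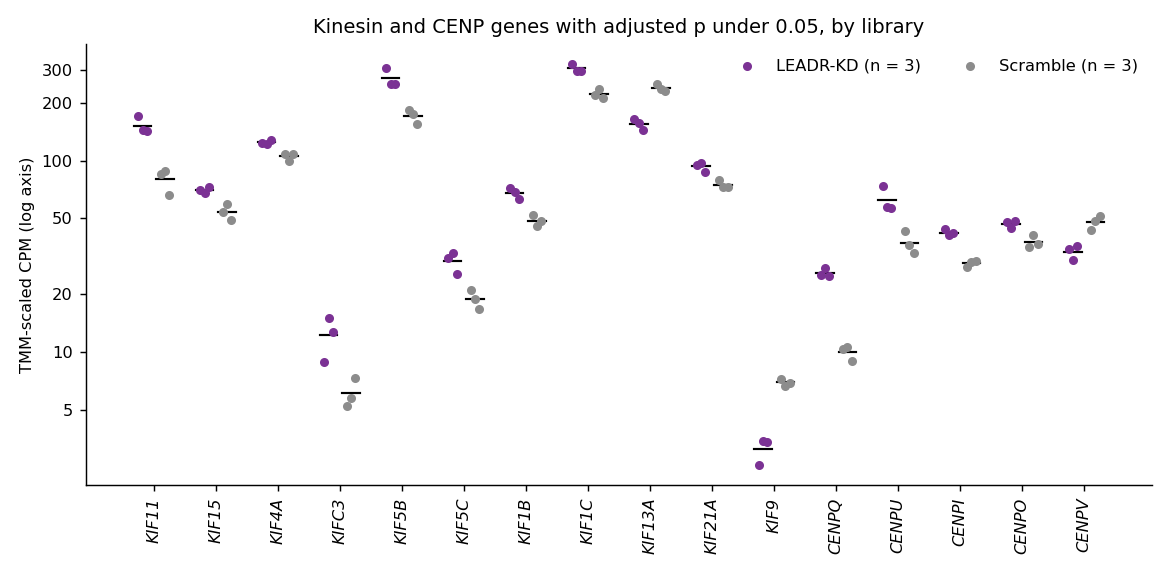
TMM-scaled CPM, on a log axis, of the 16 members that passed the test, with each LEADR-KD library in purple, each Scramble library in grey and black bars at the means (n = 3 each). In each of the 16 genes the groups do not overlap: *CENPQ* lies at 25.0 to 27.4 CPM in LEADR-KD and 9.01 to 10.6 CPM in Scramble, and *KIF13A* at 145 to 165 CPM in LEADR-KD and 233 to 253 CPM in Scramble. The 16 were picked by the test on these same libraries, so the lack of overlap adds no support. Over all genes tested, 39.75% had no overlap.

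All 14 inner kinetochore CENP genes were tested, of which 4 rose, 0 fell and 10 did not pass, with a median log2 fold change of 0.28. Those that rose were 28.6%, against 12.2% of all genes tested, of which 12.1% fell. *CENPQ* (ENSG00000031691, chr6:49431091-49460820, plus strand, hg19) had the largest log2 fold change of all tested members. Its product is a subunit of the CENP-O complex of the inner kinetochore, with CENP-O, CENP-P, CENP-R and CENP-U. *CENPQ* had 25.3, 27.4 and 25.0 CPM in LEADR-KD, against 10.4, 10.6 and 9.01 CPM in Scramble, a 2.59-fold rise (log2 fold change 1.37, standard error 0.13, adjusted p = 2.16e-05).

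The other subunits of the CENP-O complex did not move as one. *CENPU*, whose product docks Polo-like kinase at the kinetochore, had 73.6, 57.2 and 56.6 CPM in LEADR-KD, against 42.8, 36.1 and 32.8 CPM in Scramble, and rose by 0.75 on the log2 scale (standard error 0.13, adjusted p = 0.00174). *CENPO* had 47.7, 44.6 and 48.6 CPM in LEADR-KD, against 35.5, 41.1 and 36.7 CPM in Scramble (log2 fold change 0.31, standard error 0.10, adjusted p = 0.0378). It passed without Scramble 2 (adjusted p = 0.0389) but not without any 1 of the other 5 libraries (adjusted p = 0.0654 to 0.111). *CENPO* overlaps *ADCY3* on the opposite strand by 3208 bases, and *ADCY3* rose by 0.66 (adjusted p = 0.000792). Whether the counting used strand is not stated.

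*CENPP* had the lowest mean CPM of the inner kinetochore genes, with 10.8, 11.9 and 10.99 CPM in LEADR-KD and 11.5, 12.3 and 10.4 CPM in Scramble, and overlapping groups (log2 fold change -0.02, adjusted p = 0.924). *ITGB3BP*, the gene of CENP-R, which the symbol rule does not take, had 11.5, 8.91 and 10.99 CPM in LEADR-KD, against 16.6, 19.4 and 17.8 CPM in Scramble, and fell by 0.78 on the log2 scale (standard error 0.14, adjusted p = 0.0025). Of the 5 subunit genes, *ITGB3BP* included, 3 rose, 1 fell and 1 did not pass, where 12.2% of all genes tested rose and 12.1% fell. One of those that rose was *CENPO*, whose call was lost without any 1 of 5 of the 6 libraries. The 5 genes were not tested as a set.

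In the CENP-H, -I, -K and -M complex, *CENPI* alone passed. It had 43.9, 41.0 and 41.7 CPM in LEADR-KD, against 28.0, 29.4 and 30.1 CPM in Scramble (log2 fold change 0.53, standard error 0.10, adjusted p = 0.00216). *CENPM* had 40.6, 41.4 and 44 CPM in LEADR-KD, against 32.2, 39.2 and 34.1 CPM in Scramble, without overlap (log2 fold change 0.26, unadjusted p = 0.0324 and adjusted p = 0.101 from edgeR). *CENPH* was at 0.26 and *CENPK* at -0.12. The groups of *CENPK* overlapped.

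The partner pair *CENPL* and *CENPN*, of which CENP-N reads the CENP-A nucleosome, were alike in size. *CENPL* had 20.5, 19.9 and 22.5 CPM in LEADR-KD, against 14.3, 19.4 and 14.6 CPM in Scramble (log2 fold change 0.37, unadjusted p = 0.0237 and adjusted p = 0.0815 from edgeR), and passed without Scramble 2 (0.53, adjusted p = 0.0267). *CENPN*, the highest of the inner kinetochore genes that did not pass by mean CPM, had 60.6, 45.1 and 56.7 CPM in LEADR-KD, against 41.3, 42.8 and 47.5 CPM in Scramble, with LEADR-KD 2 below Scramble 3 (log2 fold change 0.30, unadjusted p = 0.0263 and adjusted p = 0.0877 from edgeR), and passed without LEADR-KD 2 (0.42, adjusted p = 0.0313). *CENPC*, the scaffold between CENP-A and the outer kinetochore, was at 0.30 (adjusted p = 0.141), and the histone-fold genes *CENPW* and *CENPT* were at 0.14 and -0.11. *CENPA* itself had 20.4, 20.7 and 25.6 CPM in LEADR-KD and 19.1, 25.2 and 27.9 CPM in Scramble (log2 fold change -0.11, adjusted p = 0.645). The *CENPA* locus overlaps *SLC35F6* on the same strand by 16943 bases, and *SLC35F6* did not pass (log2 fold change 0.09, adjusted p = 0.576). The part of shared reads in *CENPA* was not tested.

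Of the 4 other CENP genes, *CENPV* (ENSG00000166582, chr17:16245848-16256970, minus strand, hg19), which takes part in the organisation of centromeric heterochromatin, fell and 3 did not pass. *CENPV* had 34.6, 30.4 and 35.7 CPM in LEADR-KD, against 43.7, 48.4 and 51.6 CPM in Scramble (log2 fold change -0.51, standard error 0.11, adjusted p = 0.00495). *CENPF*, a large protein of the outer kinetochore in mitosis, had the highest mean CPM, at 258, 220 and 215 CPM in LEADR-KD and 314, 229 and 262 CPM in Scramble (log2 fold change -0.22, adjusted p = 0.212). *CENPB*, which binds a short box in centromeric satellite DNA, was at -0.13. *CENPJ*, which sets centriole length, had the lowest mean CPM, at 25.4, 28.6 and 27.8 CPM in LEADR-KD and 38.7, 23.4 and 27.5 CPM in Scramble, where Scramble 1 was the highest of the 6 libraries (log2 fold change -0.13, adjusted p = 0.619).

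Levels of different genes were compared per length, in the authors' FPKM (fragments per kilobase of gene, scaled to library size). In LEADR-KD the highest members were *KIF5B* at 45.8 ± 5.25, *KIF20A* at 43.0 ± 3.04 and *KIFC1* at 42.1 ± 3.21 FPKM (SD, n = 3), which did not differ beyond their spread. *CENPB* at 37.0 ± 1.14, *KIF1C* at 35.4 ± 1.76 and *KIF23* at 33.7 ± 3.79 FPKM came next in LEADR-KD, again with neighbours within their spread. In Scramble *KIF20A* was the highest at 45.6 ± 3.93 FPKM and *CENPB* the next at 40.2 ± 2.73 FPKM (SD, n = 3), within their spread. *KIFC1* at 35.7 ± 1.27 and *KIF5B* at 28.9 ± 2.45 FPKM were below *KIF20A* by more than the spread in Scramble. *KIF11* was at 31.4 ± 3.33 FPKM in LEADR-KD and 16.3 ± 2.41 FPKM in Scramble.

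Genes that act with the members were taken from lists of partners. Of all genes tested, 12.2% rose and 12.1% fell, 24.4% in either direction, and no list was tested as a set. Of 17 outer kinetochore genes tested, 5 rose and 0 fell, with a median log2 fold change of 0.26. *ZW10*, which brings dynein to the kinetochore, had 59.9, 59.7 and 57.9 CPM in LEADR-KD, against 33.2, 33.3 and 35.3 CPM in Scramble (log2 fold change 0.80, adjusted p = 8.11e-05). *SPC25*, of the microtubule-binding NDC80 complex, had 47.5, 45.3 and 50.5 CPM in LEADR-KD, against 30.0, 31.8 and 29.9 CPM in Scramble (log2 fold change 0.64, adjusted p = 0.000627). Both sets of libraries were well separated. *ZWILCH*, a partner of ZW10, rose by 0.42, and *SKA1*, a microtubule-binding kinetochore gene, by 0.56, but the call of *SKA1* ended on leaving out Scramble 1 (adjusted p = 0.0785), Scramble 2 (0.132), LEADR-KD 2 (0.115) or LEADR-KD 3 (0.146).

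Of 16 spindle and midzone partners of the mitotic kinesins, 6 rose and 1 fell, with a median of 0.20. Over all genes tested, 12.2% rose and 12.1% fell. *TPX2*, a spindle assembly factor, had 372, 318 and 336 CPM in LEADR-KD, against 278, 258 and 247 CPM in Scramble (log2 fold change 0.39, adjusted p = 0.00783). *CKAP5*, a microtubule polymerase, rose by 0.31, *HMMR* by 0.30 and *ANLN*, a scaffold of the cleavage furrow, by 0.30 (not called with library totals, adjusted p = 0.0789, or without both libraries numbered 1). The call of *CKAP5* ended on leaving out Scramble 2 (adjusted p = 0.0826) or Scramble 3 (0.0513), and that of *HMMR* on leaving out any 1 of 4 of the libraries (adjusted p up to 0.102). *CDCA8*, which encodes borealin of the chromosomal passenger complex, fell to 56.9, 65.0 and 75.8 CPM in LEADR-KD, against 97.7, 106 and 122 CPM in Scramble (log2 fold change -0.72, adjusted p = 0.00105). Of 6 CENP-A loading factors, 2 rose, the chaperone gene *HJURP* (log2 fold change 0.30) and *RBBP7* (0.28), and the median of the 6 was 0.06. The call of *HJURP* was lost without any 1 of 5 of the 6 libraries (adjusted p up to 0.176) and in 11 of 17 alternative fits. That of *RBBP7* was lost without any 1 of 4 of the 6 libraries (adjusted p up to 0.108) and in 7 of the 17.

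On the transport side, 3 of 14 partners tested rose and 1 fell, with a median of 0.14. For this list and the next, the shares over all genes tested are 12.2% that rose and 12.1% that fell. *KIFAP3*, the accessory subunit of kinesin-2, had 9.84, 9.35 and 8.72 CPM in LEADR-KD, against 6.07, 7.34 and 4.72 CPM in Scramble (log2 fold change 0.62, adjusted p = 0.0351), and passed only without Scramble 2 among the 6 fits that left out a library (adjusted p up to 0.121); on the log2(FPKM + 1) scale its change was 0.38. *KLC2*, a kinesin-1 light chain, rose by 0.44, and *RHOT1*, the mitochondrial receptor of kinesin-1, by 0.42. The call of *KLC2* ended on leaving out Scramble 2 (adjusted p = 0.0839), LEADR-KD 2 (0.0677) or LEADR-KD 3 (0.0808). *TRAK1*, an adaptor between RHOT1 and the kinesin-1 heavy chain, fell by 0.27 (adjusted p = 0.0487), a call lost without any 1 of 5 of the 6 libraries (adjusted p up to 0.184). Of 21 genes of dynein and dynactin, the minus-end-directed motor and its activator, 5 rose and 1 fell, with a median of 0.08. *DYNC1LI1*, a light intermediate chain, rose by 0.43, *DCTN2* by 0.34 (not called with library totals, adjusted p = 0.0661), *DYNC1LI2* by 0.31 and *DYNLL2* by 0.31, and *DYNLL1* fell by 0.31. The calls of *DYNC1LI2*, *DYNLL2* and *DYNLL1* were lost without any 1 of 3, 3 and 5 of the 6 libraries (adjusted p up to 0.0725, 0.105 and 0.157).

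**Figure D5:**
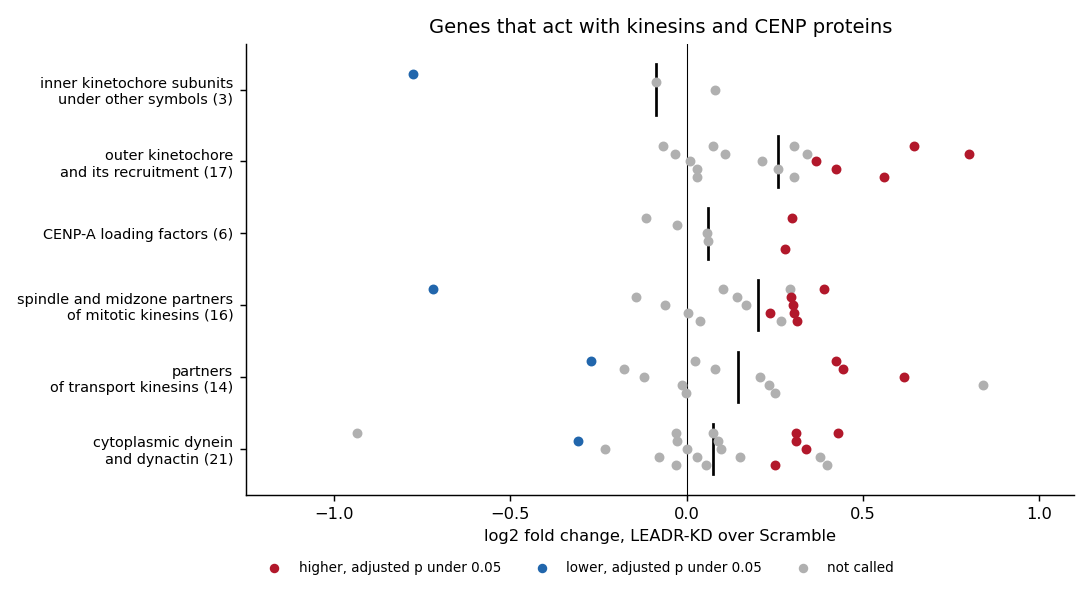
log2 fold change of LEADR-KD over Scramble for each tested gene of the 6 partner lists (number tested in brackets), in red where it rose, blue where it fell and grey where it did not pass, with a black line at the list's median; vertical offsets only separate points. The medians are 0.26 for the outer kinetochore, 0.20 for spindle and midzone partners, 0.14 for transport partners and 0.08 for dynein and dynactin. They are 0.06 for CENP-A loading factors and -0.09 for the 3 inner kinetochore subunits under other symbols.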

How the data were processed

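Poly(A) RNA of 3 LEADR-KD and 3 Scramble libraries of RT4 cells was analysed from the authors' processed tables; groups and numbers came from the labels. The deposited raw counts per gene were made on hg19 and, per the submitters' notes, with featureCounts 1.5.0-p3 after alignment by HISAT2 2.0.5, whereas the study's methods name Salmon, and neither states a strand setting. The FPKM values deposited by the authors are each count divided by gene length and by 1 constant per library. The remaining deposited table holds the authors' own comparison (fold changes and p-values) and was not used.

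Genes were kept by filterByExpr (minimum count 10), scaled by TMM and tested by the quasi-likelihood test of edgeR 4.0.16 in R 4.3.3 without covariates, with Benjamini-Hochberg adjustment over 14178 genes. "Rose" and "fell" mean an adjusted p under 0.05. The standard error is the log2 fold change divided by the square root of F. The biological coefficient of variation was 12.6%. The steps were tested on simulated data. No 2 libraries agreed within sampling noise.

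Members, role groups and lists were chosen with earlier results of these data known, so lists are given as counts and medians only. Named are every member past the threshold, those with an unadjusted p under 0.05, the highest and lowest other tested member of each role group by CPM, and up to 4 genes a direction per partner list; *CENPA*, *CENPC*, *CENPH* and further members were added to account for all. Seed matches used 3′ UTRs of GENCODE v44 on GRCh37 (DNA letters), 1 transcript a gene, and promoters RefSeq. Alternatives were DESeq2 1.42.0, limma 3.58.1 (voom, or log2 of FPKM plus a pseudocount of 1 or 0.1), other scalings and filters, a replicate block, libraries left out and a changed role assignment.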

Additional observations from a re-analysis of the deposited data

How the results depend on the processing

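Under 17 alternatives, *KIF11*, *KIF13A*, *KIF1C*, *KIF5B*, *KIF9*, *CENPQ*, *CENPU*, *CENPI* and *CENPV* kept their call and direction in each. *KIF1B*, *KIF5C* and *KIFC3* lost it only with limma on log2(FPKM + 1) without a filter, *KIF4A* in 10, *CENPO* in 9, *KIF21A* in 5 and *KIF15* in 2 (library totals and without Scramble 3). With limma on log2(FPKM + 1) without a filter, 894 genes were higher and 811 lower, against 1736 and 1719, 7 members were higher, against 13, 2 transport kinesins were higher, against 5, and the transport median was 0.13, against 0.21. With library totals in place of TMM, 1085 genes were higher, 1 mitotic kinesin was higher, against 3, and the median of the other kinesins was -0.049, against -0.005. That median was 0.33 without a filter on low counts, 0.051 with limma on log2(FPKM + 1) and -0.26 with *KIF2A* put with the mitotic and *KIF21A* with the transport kinesins. The cause of these shifts was not tested.

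With each library left out in turn, 1182 to 1452 genes were higher and 1137 to 1461 lower (1137 without LEADR-KD 2), 9 to 12 members were higher and 3 lower, 1 to 3 mitotic (1 without Scramble 3), 5 transport and 3 to 5 inner kinetochore genes were higher. The medians were 0.020 to 0.18 for the mitotic kinesins (0.020 without LEADR-KD 3), 0.16 to 0.25 for transport, -0.054 to 0.062 for the other kinesins, 0.24 to 0.32 for inner kinetochore and -0.30 to -0.13 for the other CENP genes (-0.30 without Scramble 2). *CENPP*, at -0.024 in the log2 fold change of all libraries, ranged from -0.086 to 0.033 (0.033 without Scramble 2, 0.0054 without LEADR-KD 1), and was at 0.0073 without both libraries numbered 1. *CENPJ*, at -0.13, ranged from -0.28 to 0.10 (0.10 without Scramble 1), and was at 0.14 without both libraries numbered 1. Neither passed in any fit.

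Samples with the same number were correlated in their deviations from the group means by 0.23, 0.0006 and 0.27 across 14178 genes. Samples with different numbers were correlated by -0.30 to 0.08. The numbers were not taken as pairs in the main fit because no source says that they mark a shared culture or day. Whether they mark a batch was not tested. With a replicate block, 2489 genes were higher and 2365 lower, 19 members were higher and 5 lower, and 5 mitotic kinesins and 7 inner kinetochore genes were higher. At 41 to 130 counts per library, *KIF9* was the called member with the fewest counts, and members with 12 counts or fewer per library were not detectable above the filter.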
